A study of Mus musculus with 12 samples.

Results

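The mitosis genes are 41 genes for kinases, cyclins, kinetochore and spindle proteins that act when a cell divides. They were taken by name from a deposited table of expression in mouse breast cancer cells. All 41 were found among its 24454 Entrez gene IDs, and all 41 reached 1 CPM (reads per 1000000 reads) in at least 2 libraries, as did 12502 genes in all. The table holds 3 cell lines described as mesenchymal: PyMT-1099 LT and Py2T LT, from mammary tumours driven by MMTV-PyMT, and MT∆Ecad, from those driven by MMTV-Neu. The name MT∆Ecad marks deletion of E-cadherin, the product of Cdh1, which the PyMT lines do not carry by their labels. The labels of both PyMT lines, and not that of MT∆Ecad, also carry the letters LT, which they do not spell out. Between lines the oncogene, the deletion, what LT marks and the line itself cannot be told apart. In these mice the mammary tumour virus promoter drives the oncogene in the mammary epithelium. Cells of each line received either non-targeting siRNA (siCtl) or siRNA to Nrf2 (siNrf2), both from Dharmacon, and were kept for 48 hours. This makes 6 groups of 2 libraries from total RNA. The series text calls the 2 replicates of a group biological, and each line is 1 line, so the p-values measure the spread between cultures and not between tumours or animals. The titles call MT∆Ecad DeltaLN, and the series design text writes Py2T-1099 LT where the sample labels write PyMT-1099 LT.

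As background, entry into mitosis is driven by Cdk1 bound to cyclin B, and exit by the anaphase-promoting complex (APC/C), a ubiquitin ligase that marks cyclin B and securin for destruction. In between, kinetochores attach chromosomes to the spindle, the checkpoint kinases hold back the APC/C until all are attached, and the central spindle sets the plane of cytokinesis. The RNAs of most of these proteins peak in G2 and mitosis. Their promoters are known for the cell cycle homology region, an element bound by the DREAM and MuvB complexes, together with CCAAT boxes bound by NF-Y. The level of these RNAs in a culture is therefore widely read as a mark of how many cells are cycling. In bulk RNA, fewer cells in G2 or mitosis and less RNA per such cell cannot be told apart.

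The libraries held 27088970 to 37070635 reads. Nfe2l2, which encodes Nrf2 (GRCm38 chromosome 2, 75675513 to 75704663), stood at 113 and 113 CPM in siCtl of PyMT-1099 LT and 25.7 and 33.3 in its siNrf2 libraries. The level left after siNrf2 was 26.1% there, 26.8% in Py2T LT and 25.2% in MT∆Ecad. Vim, which marks mesenchymal cells, lay at 3377 to 4258, 1489 to 1855 and 4972 to 5534 CPM in the 3 lines, in this order. The epithelial cadherin gene Cdh1 lay at 47.8 to 62.1, 12.5 to 18.1 and 0.315 to 0.639 CPM, and of 8 epithelial markers 4, 8 and 2 reached 1 CPM. Summed, these 8 lay at 3764 to 5403, 2686 to 3826 and 984 to 1246 CPM. Most of the sum came from the keratins Krt8 and Krt18, which stood at 770.0 to 947 and 212 to 298 CPM in MT∆Ecad also. Of 8 mesenchymal markers 7, 8 and 8 reached 1 CPM, with sums of 10169 to 11569, 10778 to 11990 and 12030 to 17413 CPM. Twist1 was at 0 in PyMT-1099 LT, and Cdh2, the neural cadherin gene, reached at most 14.8 CPM in Py2T LT against 205 to 237 in PyMT-1099 LT. Each line thus held epithelial keratin as well as mesenchymal transcripts. Of 6 immune markers 1, 2 and 1 did so, mainly Cd68, while the leukocyte marker Ptprc reached at most 0.0571 CPM and the T cell marker Cd3e was at 0 in every library. Summed over the list, immune markers lay at 2.29 to 6.30 CPM and the 3 adipocyte markers at 0.0291 to 1.67 CPM. The 4 endothelial markers summed to 88.0 to 124.0 CPM in PyMT-1099 LT, and to at most 6.30 CPM in the other lines. Of the 4 only Cdh5 reached 1 CPM in any library, with 90.6 and 88.0 CPM in siCtl and 124 and 122 in siNrf2 of PyMT-1099 LT, while Pecam1 stayed at or below 0.205 CPM. Summed over the 41 mitosis genes, each library had a share of 0.529% to 0.752%.

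The 2 replicates of a group differed in many mitosis genes, in a direction that followed transcript length and GC content. In PyMT-1099 LT and Py2T LT, long transcripts with low GC content tended to be higher in replicate 2 than in replicate 1, under siCtl and siNrf2 alike. For Cenpe, a kinesin of the kinetochore with a transcript of 7910 nt and 42.9% GC, replicate 2 minus replicate 1 was 0.95 and 1.48 on the log2 scale in PyMT-1099 LT (siCtl, siNrf2). In Py2T LT it was 0.83 and 1.22. In MT∆Ecad the siCtl difference went the other way, at −0.29. Aurkb, with 1950 nt and 52.5% GC, differed between replicates by −0.015 and −0.015 in PyMT-1099 LT and by 0.022 and −0.024 in Py2T LT. In MT∆Ecad Aurkb differed by 0.11 and 0.28, while Cenpe differed under siNrf2 by 0.00097. Not all AT-rich members followed this direction: Ccnb1, with 44.2% GC, differed by −0.26 and −0.12 in PyMT-1099 LT.

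Across the 41 members, Spearman's rho of the replicate difference with transcript length was 0.63 and 0.67 in PyMT-1099 LT (siCtl, siNrf2) and 0.69 and 0.68 in Py2T LT. It was −0.61 and −0.26 in MT∆Ecad. With GC content, rho was −0.70 and −0.76, −0.79 and −0.84, and 0.77 and 0.42 in the 3 lines. Over 12070 genes with a transcript in the annotation, rho with length was 0.35 and 0.39 for PyMT-1099 LT and 0.38 and 0.30 for Py2T LT. These are descriptions across genes of the same libraries, and length and GC content themselves had a rho of −0.41 over the members. Same-numbered siCtl and siNrf2 libraries of a line deviated together, with r of 0.971, 0.974 and 0.535 over the members. A second fit that pairs same-numbered libraries of a line, called the blocked fit here, therefore stands beside the fit without it wherever it changes a call. The part of this replicate difference in the results was not tested.

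**Figure D1:**
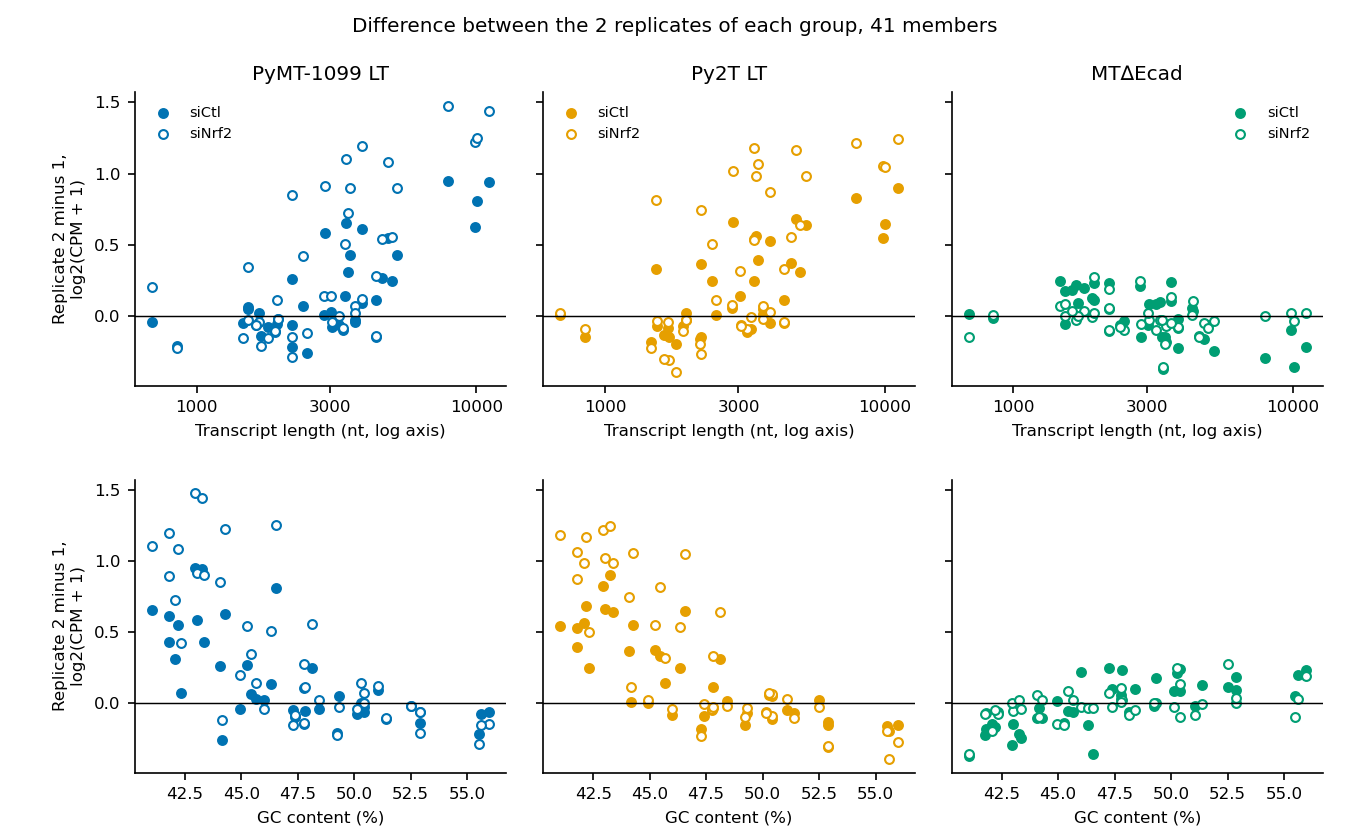
Difference between replicate 2 and replicate 1 of each group, in log2(CPM + 1), against transcript length (upper row, nt, log axis) and GC content (lower row, percent) for the 41 members, with filled points for siCtl and open points for siNrf2. The highest point, at 1.48, is Cenpe in siNrf2 of PyMT-1099 LT, while in MT∆Ecad all points lie between −0.37 and 0.28.

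Averaged over the 3 lines, all 41 mitosis genes had a lower estimate after siNrf2, from −0.089 to −0.46 on the log2(CPM + 1) scale, with a median of −0.22. Of these, 12 were called lower, meaning a limma adjusted p under 0.05 over all 12502 tested genes, and 0 were called higher. They were Aurkb, Cks1b, Cenpa, Nek2, Bub1b, Pttg1, Cks2, Spag5, Racgap1, Cdk1, Ccnb2 and Kif20a, and they come from 7 of the 8 role groups below. The background was 6.26% of all tested genes called lower, and the median of all tested genes was −0.0091, with 6524 of 12502 below 0. In the blocked fit 32 of 41 were called lower and 0 higher, beside 21.0% of all tested genes. The falls were small: Aurkb, the largest, fell to 0.726 times the siCtl level, and Kif20a, the smallest of the called, to 0.893 times.

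Which members were called went in part with their spread, which enters the test itself. The SE of the 12 called members lay between 0.038 and 0.067. That of the 20 members called only in the blocked fit lay between 0.044 and 0.32, with a median estimate of −0.21 beside −0.25 for the called. The 9 members called in neither fit had an SE of 0.056 to 0.32 and a median estimate of −0.14. Over the 41 members rho of the SE with GC content was −0.64 and with transcript length 0.44. Split at the median length, 6 of the 20 shorter and 6 of the 21 longer members were called, with medians of −0.19 and −0.24. With each library's trend in length and GC content removed, an alternative chosen after seeing the data, 19 of 41 were called lower (13.2% of all genes tested that way) and 37 of 41 with the block as well (27.2%).

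Leaving out 1 library at a time, 5 to 14 members were called. The count fell by over 1.5 times without siCtl replicate 1 (6) or 2 (7) of PyMT-1099 LT, siCtl replicate 1 (5) or 2 (6) of Py2T LT, and siCtl replicate 2 (6) or siNrf2 replicate 2 (5) of MT∆Ecad. Aurkb, Cks1b, Nek2 and Spag5 were called in all 12 of these fits, Bub1b in 11, Pttg1 in 10 and Racgap1 in 8. Cenpa and Cks2 were called in 4, Kif20a in 3, and Cdk1 and Ccnb2 in 2. For the fits with 1 library left out, the share of all tested genes called is not given here. A loss of calls over all genes can therefore not be told from a loss among the members. On the whole reads recovered from the CPM values, edgeR called 6 members lower, beside 3.62% of all tested genes, and DESeq2 7, beside 4.62%. With CPM rescaled by TMM factors, limma called 8 of 41 members lower in the mean of the lines, beside 625 of 12502 tested genes. By pairs of the same replicate number, 18 of 41 members were lower in all 6 pairs, beside 12.2% of all tested genes. Another 18 members were lower in 5 pairs, beside 1787 of 12502 tested genes. The exception with the fewest was Aurka, lower in 2 of 6 pairs.

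**Figure D2:**
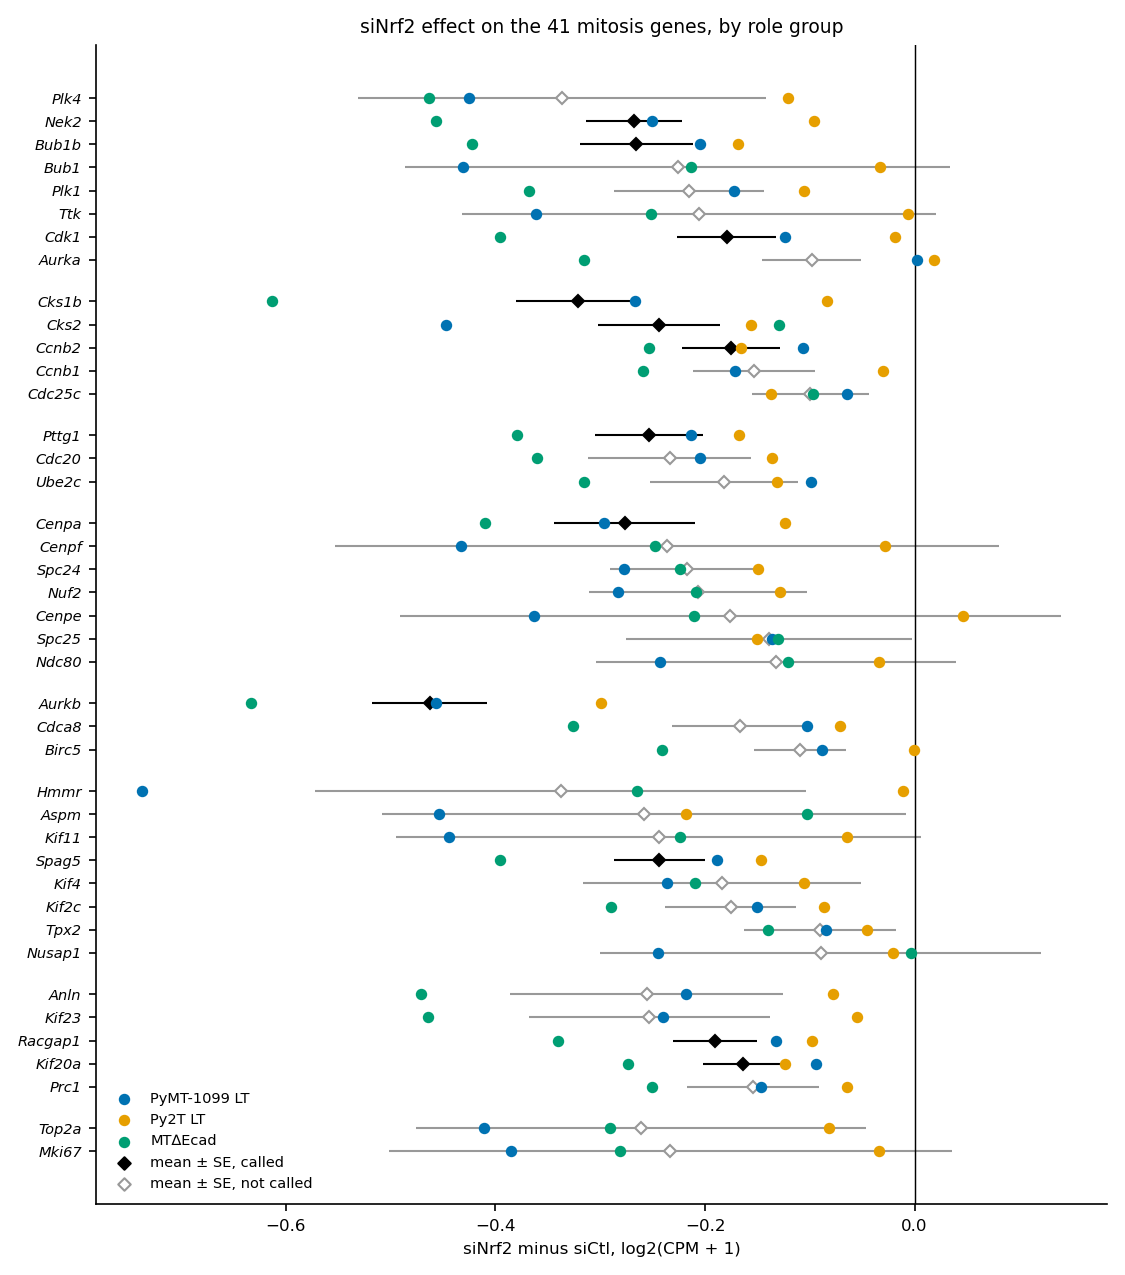
siNrf2 minus siCtl in log2(CPM + 1) for each of the 41 members, in 8 blocks from top to bottom: kinases, cyclin B and Cdk1 regulators, APC/C genes and securin, centromere and kinetochore, chromosomal passenger complex, spindle proteins, cytokinesis, and chromosome structure. Coloured points are the 3 lines and diamonds the mean of the lines with its SE, black where called. All 41 diamonds lie below 0, and Py2T LT lies nearest to 0 for most members.

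Of the 8 mitotic kinases 3 were called lower, beside 6.26% of all tested genes, and 7 once blocked, beside 21.0%. The median was −0.22. No role group, here or below, was tested against these shares of all genes. Nek2, a kinase that separates centrosomes (Entrez 18005, chromosome 1, 191821449 to 191833049), stood at 100.4 and 96.4 CPM in siCtl and 82.4 and 82.6 in siNrf2 of PyMT-1099 LT, 161 and 149 and then 149.6 and 141 in Py2T LT, and 131 and 139.7 and then 102 and 95.1 in MT∆Ecad. Its groups did not overlap in PyMT-1099 LT and MT∆Ecad, while in Py2T LT siNrf2 replicate 1 lay just above siCtl replicate 2. The mean difference was −0.27 (SE 0.045, limma adjusted p = 0.00894), lower in 6 of 6 pairs. Bub1b, the checkpoint protein BubR1 (Entrez 12236, chromosome 2, 118598202 to 118641592), stood at 241 and 237 CPM in siCtl and 202 and 212 in siNrf2 of PyMT-1099 LT, 183 and 189.6 and then 161 and 169 in Py2T LT, and 201 and 237 and then 155 and 170.0 in MT∆Ecad. Both siNrf2 libraries lay below both siCtl libraries in each line, and the mean difference was −0.27 (SE 0.054, limma adjusted p = 0.0160). Cdk1, the kinase that drives entry into mitosis (Entrez 12534, chromosome 10, 69335146 to 69352912), stood at 308 and 278 CPM in siCtl and 282 and 256 in siNrf2 of PyMT-1099 LT, 519.6 and 504 and then 511 and 498 in Py2T LT, and 259 and 265 and then 192 and 207 in MT∆Ecad. The groups were apart in MT∆Ecad, where Cdk1 fell, while in the other lines the groups overlapped, and the mean was −0.18 (SE 0.047, limma adjusted p = 0.0405).

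Plk4, which starts centriole duplication, had the largest mean estimate of the kinases but a wide spread. It stood at 88.3 and 109.7 CPM in siCtl and 56.6 and 94.2 in siNrf2 of PyMT-1099 LT, 56.7 and 84.4 and then 44.9 and 89.9 in Py2T LT, and 74.7 and 67.4 and then 54.8 and 47.8 in MT∆Ecad. In both PyMT lines replicate 2 was higher than replicate 1, and the mean difference of −0.34 (SE 0.19, limma adjusted p = 0.298) passed in the blocked fit (adjusted p = 0.00912). The checkpoint kinases Bub1 and Ttk had means of −0.23 and −0.21, with SE of 0.26 and 0.23. Plk1, which acts from centrosomes to cytokinesis, had −0.22 (limma adjusted p = 0.0822, blocked 0.00192). Aurka, the kinase of spindle poles, had −0.098 (limma adjusted p = 0.211, blocked 0.0309). In the blocked fit Bub1 alone of the kinases was not called (limma adjusted p = 0.0835).

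Of the 5 regulators of Cdk1, 3 were called lower, beside 6.26% of all tested genes, and 4 in the blocked fit, beside 21.0%. Cks1b, a small subunit of Cdk complexes (Entrez 54124, chromosome 3, 89415472 to 89418291), stood at 188 and 163 CPM in siCtl and 157 and 135 in siNrf2 of PyMT-1099 LT, 207 and 187 and then 192 and 179.8 in Py2T LT, and 129 and 128 and then 83.6 and 84.0 in MT∆Ecad. In MT∆Ecad all 4 values lay in 2 tight, separate pairs, while in Py2T LT siNrf2 replicate 1 lay above siCtl replicate 2. The mean difference was −0.32 (SE 0.059, limma adjusted p = 0.0119). Cks2, its paralog (Entrez 66197, chromosome 13, 51645232 to 51650662), was the lowest of the members at 4.23 and 4.09 CPM in siCtl and 2.53 and 3.06 in siNrf2 of PyMT-1099 LT, 4.32 and 4.34 and then 3.75 and 3.82 in Py2T LT, and 4.67 and 4.73 and then 4.48 and 3.95 in MT∆Ecad. Its groups did not overlap in any line, its lowest estimate was in PyMT-1099 LT, and the mean was −0.24 (SE 0.058, limma adjusted p = 0.0288). Mouse Cks1b has a retrocopy, Cks1brt, and how the counting treated shared reads is not given in the sources used here. Ccnb2, cyclin B2 (Entrez 12442, chromosome 9, 70407689 to 70421554), stood at 49.0 and 50.9 CPM in siCtl and 46.7 and 45.9 in siNrf2 of PyMT-1099 LT, 129 and 123 and then 113 and 111 in Py2T LT, and 108 and 122 and then 96.2 and 96.4 in MT∆Ecad. Both siNrf2 libraries lay below both siCtl libraries in each line, with a mean of −0.18 (SE 0.047, limma adjusted p = 0.0415). Ccnb1, cyclin B1, had −0.15 (limma adjusted p = 0.120, blocked 0.0123), and Cdc25c, the phosphatase that activates Cdk1, −0.099 (adjusted p = 0.285, blocked 0.106).

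Of the 3 genes for APC/C function, 1 was called, beside 6.26% of all tested genes, and 3 in the blocked fit, beside 21.0%. Pttg1, securin, which holds the cohesin protease in check (Entrez 30939, chromosome 11, 43420244 to 43427463), stood at 76.2 and 77.5 CPM in siCtl and 67.1 and 65.2 in siNrf2 of PyMT-1099 LT, 63.8 and 60.2 and then 55.8 and 54.3 in Py2T LT, and 51.0 and 59.7 and then 42.6 and 41.8 in MT∆Ecad. The siNrf2 pair lay below the siCtl pair in each line, with a mean of −0.25 (SE 0.052, limma adjusted p = 0.0165). Cdc20, the activator of the APC/C at anaphase, stood at 162 and 154 CPM in siCtl and 145 and 130.1 in siNrf2 of PyMT-1099 LT, 190.2 and 166 and then 185 and 141 in Py2T LT, and 209 and 240.1 and then 172 and 177 in MT∆Ecad. It was lower in 6 of 6 pairs, at −0.23 (SE 0.078, limma adjusted p = 0.0817), and passed in the blocked fit (adjusted p = 0.00359). Ube2c, the ubiquitin-conjugating enzyme of the APC/C, had −0.18 (limma adjusted p = 0.125, blocked 0.00419).

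At the centromere and kinetochore 1 of 7 members was called, beside 6.26% of all tested genes, and 4 once blocked, beside 21.0%. The median was −0.21. Cenpa, the histone H3 variant that marks centromeres (Entrez 12615, chromosome 5, 30666877 to 30674837), stood at 116 and 112 CPM in siCtl and 97.9 and 88.2 in siNrf2 of PyMT-1099 LT, 204 and 179.7 and then 189.8 and 162 in Py2T LT, and 104 and 124 and then 83.0 and 87.3 in MT∆Ecad. Its groups were apart in PyMT-1099 LT and MT∆Ecad and overlapped in Py2T LT, and the mean was −0.28 (SE 0.067, limma adjusted p = 0.0313). Cenpf, a large protein of the outer kinetochore with a transcript of 11130 nt, stood at 78.5 and 152 CPM in siCtl and 48.5 and 133 in siNrf2 of PyMT-1099 LT, 61.5 and 116 and then 53.4 and 128 in Py2T LT, and 150.4 and 129 and then 116 and 118 in MT∆Ecad. In the PyMT lines its 2 replicates of a group lay further apart than its siCtl and siNrf2 libraries of the same number, and the mean of −0.24 (SE 0.32, limma adjusted p = 0.689) passed in the blocked fit (adjusted p = 0.0425). Of the 4 subunits of the Ndc80 complex, which binds microtubules, Spc24 had −0.22 and Nuf2 −0.21, with limma adjusted p of 0.0859 and 0.231 (blocked 0.00609 and 0.0221). Spc25 and Ndc80 had −0.14 and −0.13 and passed in neither fit (limma adjusted p = 0.566 and 0.678, blocked 0.155 and 0.249). Cenpe had −0.18 (limma adjusted p = 0.775, blocked 0.129).

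The chromosomal passenger complex corrects faulty attachments and then moves to the central spindle. It had 1 of 3 members called, the one with the largest fall of the 41, beside 6.26% of all tested genes. In the blocked fit it had 3 called, beside 21.0%. Aurkb, its kinase (Entrez 20877, chromosome 11, 69045624 to 69051664), stood at 133 and 132 CPM in siCtl and 96.9 and 95.9 in siNrf2 of PyMT-1099 LT, 124 and 126 and then 102 and 100.3 in Py2T LT, and 116 and 126 and then 70.4 and 85.6 in MT∆Ecad. The siNrf2 pair lay below the siCtl pair in each line. The replicates lay close together in the PyMT lines and differed by 0.28 on the log2 scale in siNrf2 of MT∆Ecad. The mean was −0.46 (SE 0.055, limma adjusted p = 0.00257). Cdca8, the subunit borealin, stood at 109 and 105 CPM in siCtl and 102 and 97.8 in siNrf2 of PyMT-1099 LT, 121 and 110.3 and then 122 and 99.0 in Py2T LT, and 115 and 131 and then 96.7 and 99.2 in MT∆Ecad. It was lower in 5 of 6 pairs, with a mean of −0.17 (SE 0.064, limma adjusted p = 0.123), blocked 0.00994. Birc5, survivin, had −0.11 (limma adjusted p = 0.136, blocked 0.0238). The 3 subunits thus ranged from −0.46 to −0.11, and their 95% intervals for the mean of the lines were −0.59 to −0.34 for Aurkb, −0.31 to −0.022 for Cdca8 and −0.21 to −0.011 for Birc5.

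Among the 8 spindle proteins 1 was called, beside 6.26% of all tested genes, and 4 in the blocked fit, beside 21.0%. Spag5, astrin, which stabilises spindle poles and kinetochore fibres (Entrez 54141, chromosome 11, 78301470 to 78322457), stood at 163 and 174 CPM in siCtl and 142 and 154 in siNrf2 of PyMT-1099 LT, 152 and 147 and then 133 and 136 in Py2T LT, and 158 and 156 and then 122 and 116 in MT∆Ecad. Its siNrf2 pair lay below its siCtl pair in each line, and the mean was −0.24 (SE 0.044, limma adjusted p = 0.0108). Hmmr, a microtubule-binding protein of the spindle poles, stood at 80.9 and 124 CPM in siCtl and 39.1 and 90.9 in siNrf2 of PyMT-1099 LT, 63.7 and 92.4 and then 56.1 and 103 in Py2T LT, and 115 and 98.7 and then 91.1 and 86.3 in MT∆Ecad. Its estimate in PyMT-1099 LT was the largest of any member in any line, and its mean of −0.34 (SE 0.23, limma adjusted p = 0.392) passed in the blocked fit (adjusted p = 0.0150). Aspm, which acts at spindle poles, stood at 74.4 and 115 CPM in siCtl and 43.7 and 104 in siNrf2 of PyMT-1099 LT, 69.5 and 102 and then 49.8 and 105 in Py2T LT, and 131 and 122 and then 117 and 119 in MT∆Ecad. Replicate 1 was the lower one in all 4 groups of the PyMT lines, and the mean of −0.26 (SE 0.25, limma adjusted p = 0.560) passed in neither fit (blocked 0.0574). The kinesins Kif11, Kif4 and Kif2c had −0.24, −0.18 and −0.18, with limma adjusted p of 0.586, 0.412 and 0.0980 (blocked 0.0517, 0.0354 and 0.00427). Tpx2 and Nusap1, which promote microtubule assembly near chromosomes, had the smallest means of the members, −0.090 and −0.089 (limma adjusted p = 0.469 and 0.831, blocked 0.100 and 0.482).

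Of the 5 cytokinesis genes 2 were called, beside 6.26% of all tested genes, and 5 in the blocked fit, beside 21.0%. Racgap1, of the centralspindlin complex (Entrez 26934, chromosome 15, 99620496 to 99651656), stood at 489 and 465 CPM in siCtl and 441 and 429 in siNrf2 of PyMT-1099 LT, 331 and 318 and then 310.1 and 296 in Py2T LT, and 332 and 353 and then 273 and 268 in MT∆Ecad. Kif20a, a kinesin of the central spindle (Entrez 19348), stood at 319 and 310.0 CPM in siCtl and 292 and 297 in siNrf2 of PyMT-1099 LT, 379 and 384 and then 352 and 348 in Py2T LT, and 399.8 and 430.1 and then 348 and 338 in MT∆Ecad. Both were lower in all 6 pairs with no overlap of the groups within a line, and their means were −0.19 (SE 0.040) and −0.16 (SE 0.038), with limma adjusted p of 0.0187 and 0.0272. Anln, anillin, which links actin and septins at the furrow, stood at 271 and 327 CPM in siCtl and 211 and 309 in siNrf2 of PyMT-1099 LT, 333 and 432 and then 297 and 436 in Py2T LT, and 657 and 596 and then 475 and 429 in MT∆Ecad. Its mean of −0.26 (SE 0.13, limma adjusted p = 0.236) passed in the blocked fit (adjusted p = 0.00391). Kif23, the kinesin of centralspindlin, stood at 172 and 189.9 CPM in siCtl and 128 and 183 in siNrf2 of PyMT-1099 LT, 139 and 165 and then 121 and 176 in Py2T LT, and 152 and 137 and then 105 and 103 in MT∆Ecad. Both showed their widest gap between siRNAs in MT∆Ecad, and Kif23 had a mean of −0.25 (SE 0.11, limma adjusted p = 0.184), blocked 0.0130. Prc1, which bundles microtubules of the central spindle, had −0.15 (limma adjusted p = 0.143, blocked 0.0113).

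The last pair was not called without the block. Top2a, the topoisomerase that untangles sister chromatids, stood at 819 and 1105 CPM in siCtl and 523 and 979 in siNrf2 of PyMT-1099 LT, 522 and 815 and then 438 and 867 in Py2T LT, and 904 and 765 and then 688 and 671 in MT∆Ecad. Mki67, which coats mitotic chromosomes and gives the proliferation mark Ki-67, stood at 340.1 and 596 CPM in siCtl and 223 and 532 in siNrf2 of PyMT-1099 LT, 262 and 411 and then 223 and 461 in Py2T LT, and 678 and 531 and then 499.8 and 488 in MT∆Ecad. For both, replicate 2 of each PyMT group lay above replicate 1 of the same group, so that siNrf2 replicate 2 exceeded siCtl replicate 1. The means of −0.26 (SE 0.21, limma adjusted p = 0.480) and −0.23 (SE 0.27, limma adjusted p = 0.635) passed in the blocked fit with limma adjusted p of 0.0241 and 0.0472.

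**Figure D3:**
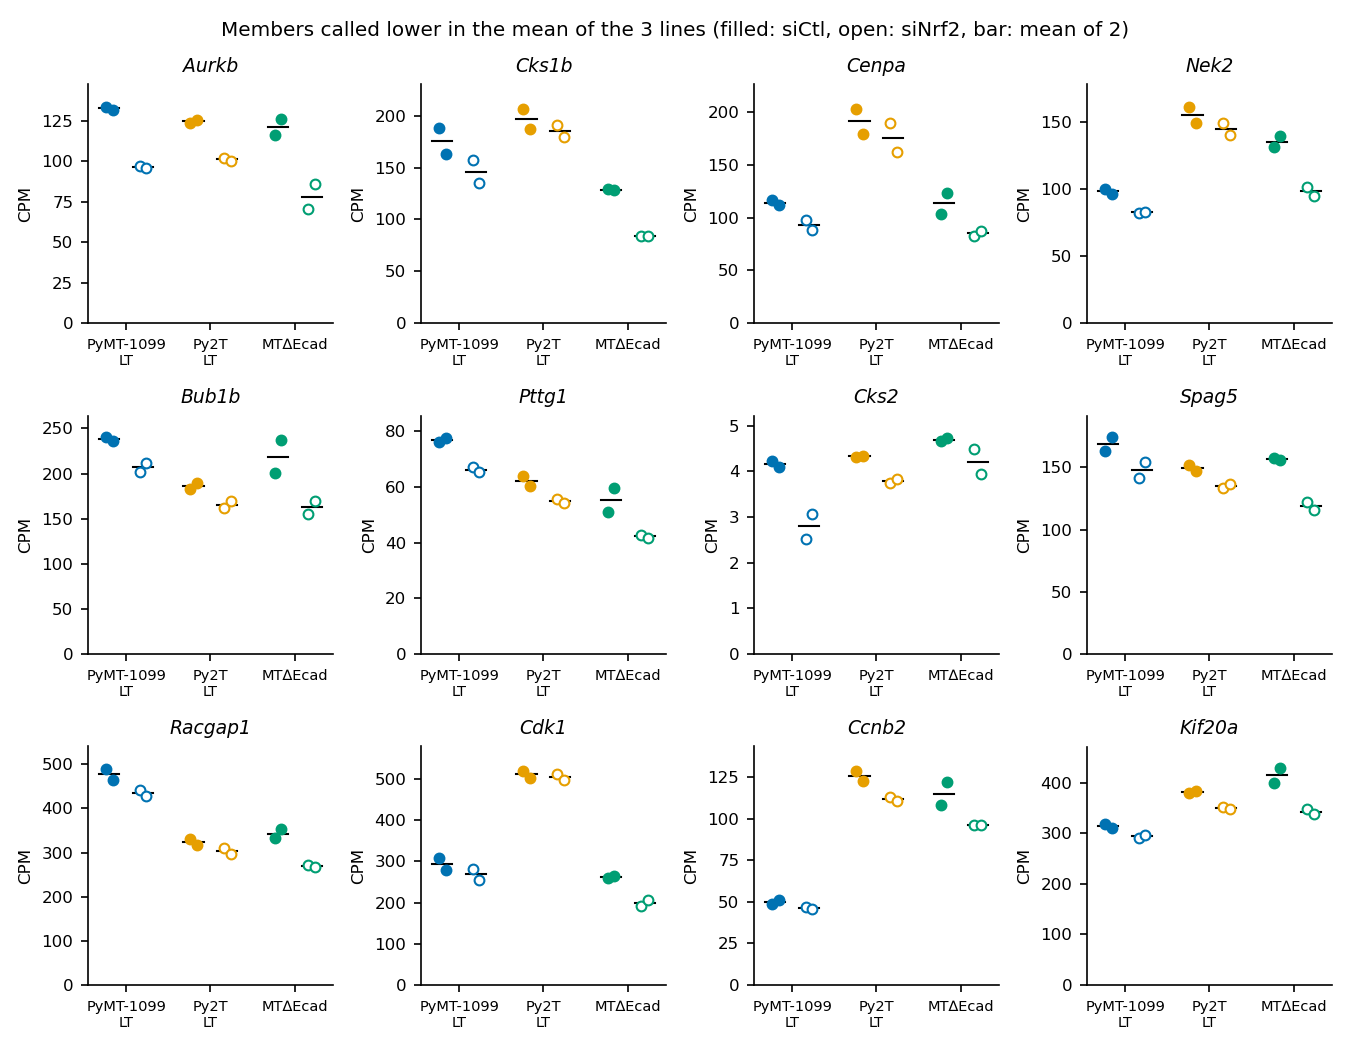
CPM in each library of the 12 members called lower in the mean of the 3 lines, ordered by the size of the fall, with filled points for siCtl, open points for siNrf2 and a bar at the mean of 2 libraries. The open points of Aurkb lie below its filled points in each line, whereas those of Cdk1 and Cks1b do so most clearly in MT∆Ecad.

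In MT∆Ecad 11 of 41 members were called lower and 0 higher, beside 8.42% of all tested genes, with a median of −0.27 against 0 for all tested genes. In the blocked fit 24 were called lower, beside 21.2%. The 5 largest estimates were Aurkb −0.63, Cks1b −0.61, Anln −0.47, Kif23 −0.46 and Plk4 −0.46. Aurkb and Cks1b passed (limma adjusted p = 0.00339 and 0.00514), while Anln, Kif23 and Plk4 passed in the blocked fit only (0.194, 0.145 and 0.412 without, 0.00241, 0.00917 and 0.0195 with the block). The other called members were Nek2 −0.46, Bub1b −0.42, Cenpa −0.41, Cdk1 −0.40, Spag5 −0.40, Pttg1 −0.38, Racgap1 −0.34, Aurka −0.32 and Kif20a −0.27. Aurka was called here and not in the mean of the lines. For 38 of 41 members both siNrf2 libraries lay below both siCtl libraries, beside 32.8% of all tested genes. The exceptions were Bub1, Cdc25c and Nusap1. Leaving out 1 library at a time, the members' median in MT∆Ecad lay between −0.298 and −0.264. On the 4 libraries of MT∆Ecad alone 6 members were called lower, beside 578 of 12502 tested genes. With all 12 libraries 1053 of 12502 tested genes were called lower in MT∆Ecad. With CPM rescaled by TMM factors, limma called 8 of 41 members lower in this line, beside 812 of 12502 tested genes.

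In PyMT-1099 LT the members had a median of −0.24, with 40 of 41 below 0, but 0 were called by limma, edgeR or DESeq2, beside 0.184% of all tested genes called lower by limma. At an unadjusted limma p under 0.05 there were 7. The share of all tested genes under that cut was not counted, here or for the other unadjusted counts below. In the blocked fit 7 were called lower, beside 3.95%: Hmmr −0.74, Aurkb −0.46, Cks2 −0.45, Cenpa −0.30, Cks1b −0.27, Nek2 −0.25 and Bub1b −0.20. The 5 largest estimates were Hmmr (limma adjusted p = 0.617, blocked 0.0259), Aurkb (0.101, blocked 0.00916), Aspm at −0.45 (0.861, blocked 0.109), Cks2 (0.128, blocked 0.0327) and Kif11 at −0.44 (0.865, blocked 0.0942). Hmmr stood at 80.9 and 124 CPM in siCtl and 39.1 and 90.9 in siNrf2, so that siNrf2 was lower in both pairs of one number while the groups overlapped. Both siNrf2 libraries lay below both siCtl libraries for 18 of 41 members, beside 17.1%. The members with low GC content had the lower estimates in this line (rho of the estimate with GC content 0.55 over the members, and 0.31 over 12070 genes). Over the members rho had the other sign in Py2T LT, at −0.41, and in MT∆Ecad, at −0.43, and was 0.074 for the mean of the lines. Without siNrf2 replicate 1 the median of the members was −0.078, and without siCtl replicate 2 it was −0.15.

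In Py2T LT the median was −0.086, against −0.021 for all tested genes, and 39 of 41 members lay below 0. None was called by limma (0.0960% of all tested genes), in the blocked fit (0.672%), by edgeR or by DESeq2, and 1 had an unadjusted limma p under 0.05. The 5 largest estimates were Aurkb −0.30, Aspm −0.22, Bub1b −0.17, Pttg1 −0.17 and Ccnb2 −0.17, with blocked limma adjusted p of 0.0626, 0.556, 0.161, 0.292 and 0.233. Both siNrf2 libraries lay below both siCtl libraries for 10 of 41 members, beside 15.9%. The count below 0 was 35 with TMM factors in limma, and 29 by edgeR and 28 by DESeq2 on recovered reads, fits that change more than the scaling. In the mean of the lines all 41 lay below 0 under these 3 alternatives. The median difference was −0.17 in pair 1 and 0.0012 in pair 2. Leaving out 1 library of the line moved the median to −0.14 or −0.024 (siCtl replicate 1 or 2) and to −0.0034 or −0.20 (siNrf2 replicate 1 or 2).

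Whether the lines differed in their response was tested directly. By the F test over the lines 0 of 41 members passed with limma, edgeR or DESeq2, beside 2.18% of all tested genes, and 4 had an unadjusted limma p under 0.05. In the blocked fit Cks1b, Cdk1, Aurka and Nek2 passed, beside 19.0% of all tested genes. Of these, Cks1b had −0.27, −0.084 and −0.61 in the order PyMT-1099 LT, Py2T LT, MT∆Ecad, and Cdk1 had −0.12, −0.019 and −0.40. Aurka had 0.0025, 0.019 and −0.32: its siNrf2 libraries in MT∆Ecad, at 128 and 127 CPM, lay below 152 and 166 in siCtl, while the PyMT lines held 221 and 206 against 221 and 205 in PyMT-1099 LT, and 172 and 160.4 against 168 and 160.2 in Py2T LT.

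Between pairs of lines, 0 members differed in the fit without the block, and all calls of the blocked fit were of a lower estimate in MT∆Ecad. Against Py2T LT 11 members passed in the blocked fit (9.49% of all tested genes, 0.960% without the block), led by Cks1b at −0.53 (0.0881 without and 0.00273 with the block) and Anln at −0.39 (0.604 without and 0.0344 with the block), with limma adjusted p in brackets. Against PyMT-1099 LT 3 passed (7.43%, and 0.648% without the block): Cks1b at −0.35 (0.333 without and 0.0149 with the block), Aurka at −0.32 (0.258 without and 0.0267 with the block) and Cdk1 at −0.27 (0.343 without and 0.0258 with the block), with limma adjusted p as before. The 2 contrasts share the MT∆Ecad libraries. At an unadjusted limma p under 0.05 without the block there were 7 and 3 members, and edgeR and DESeq2 called 0 in either. Between Py2T LT and PyMT-1099 LT 0 members passed in either fit, by edgeR or by DESeq2, and 0 had an unadjusted limma p under 0.05, beside 0.00800% and 0.0560% of all tested genes called without and with the block. For Aurkb, the estimate minus that of PyMT-1099 LT was −0.18 in MT∆Ecad (95% interval −0.48 to 0.13).

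The control libraries show how the lines differ without the knockdown. In at least 1 of 3 comparisons of siCtl libraries 20 of 41 members were called. Against PyMT-1099 LT, MT∆Ecad had 9 members higher (27.0% of all tested genes) and 5 lower (30.6%). Against Py2T LT it had 4 higher (25.9%) and 4 lower (28.6%), and Py2T LT against PyMT-1099 LT had 6 higher (28.1%) and 7 lower (27.5%). In each of the 6 counts the members' share was below that of all tested genes. Each control group enters 2 of these comparisons.

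Ccnb2 had the widest gap. Its siCtl libraries stood at 49.0 and 50.9 CPM for PyMT-1099 LT, 129 and 123 for Py2T LT and 108 and 122 for MT∆Ecad. PyMT-1099 LT lay lowest, and the difference of MT∆Ecad from Py2T LT did not pass (log2 difference −0.13, 95% interval −0.31 to 0.054), while Py2T LT exceeded PyMT-1099 LT by 1.32 (SE 0.081, limma adjusted p = 5.27e-07). Cdk1, its partner, stood at 308 and 278, 519.6 and 504 and 259 and 265 CPM: Py2T LT stood above PyMT-1099 LT by 0.80 (SE 0.082, limma adjusted p = 2.29e-05). Cenpa was likewise highest in Py2T LT, at 116 and 112, 204 and 179.7 and 104 and 124. Anln was highest in MT∆Ecad, at 657 and 596 against 271 and 327 in PyMT-1099 LT, a difference of 1.07 (SE 0.23, limma adjusted p = 0.00273). Racgap1 and Aurka were highest in PyMT-1099 LT, above Py2T LT by 0.55 and 0.37 on the log2 scale and above MT∆Ecad by 0.48 and 0.42. Nusap1 was lowest in Py2T LT, at 27.5 and 36.4 against 58.3 and 79.0 in PyMT-1099 LT, a difference of −1.08 (SE 0.36, limma adjusted p = 0.0308), and it is one of the members that also differed between replicates.

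Without siCtl replicate 2 of PyMT-1099 LT or of MT∆Ecad, 5 members were called higher in MT∆Ecad than in PyMT-1099 LT, and without siCtl replicate 1 of Py2T LT 4 were called lower in Py2T LT than in PyMT-1099 LT. For these fits with 1 library left out, the share of all tested genes called is not given here. A loss of calls over all genes can therefore not be told from a loss among the members. Levels per length of transcript used the longest protein-coding transcript of each member, and their order depends on that choice. By that measure the mean level over all 12 libraries was highest for Cks1b, Top2a and Racgap1, at 180.0, 145 and 118 CPM per kb. It was lowest for Cks2 (5.77 CPM per kb), Cenpf (9.62 CPM per kb) and Aspm (9.72 CPM per kb).

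**Figure D4:**
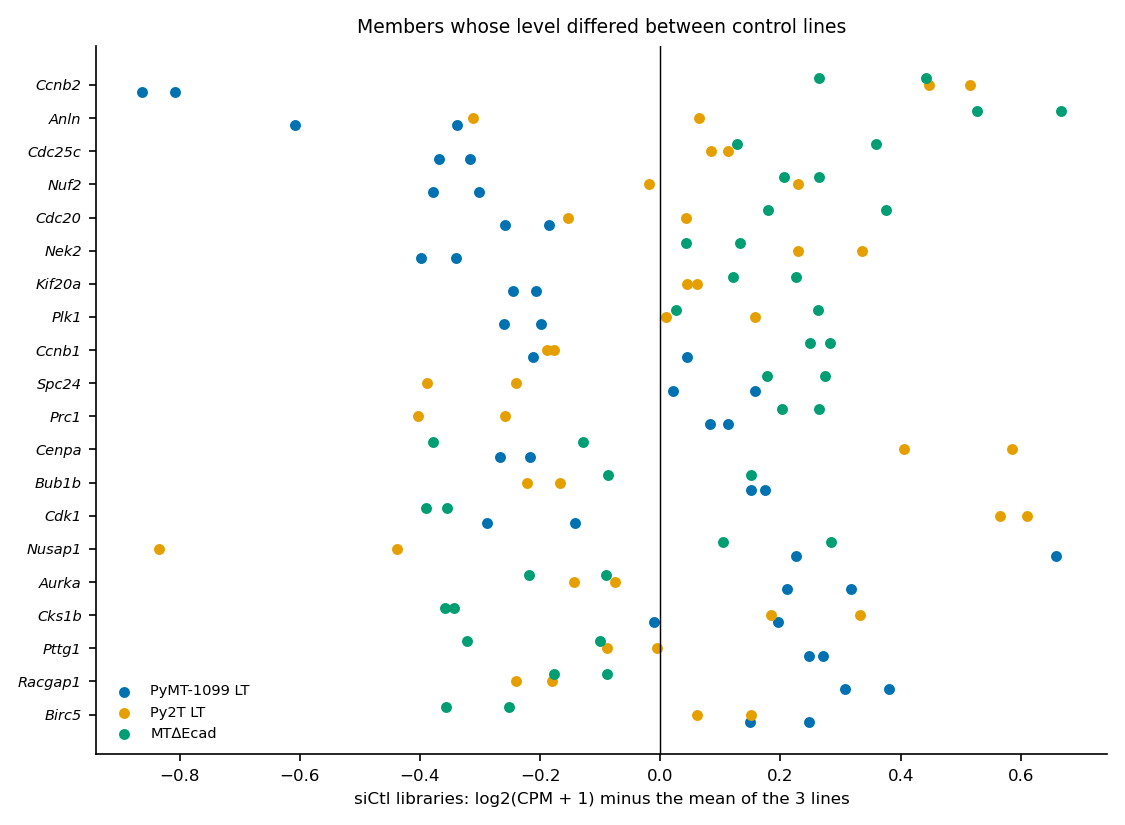
The 20 members with a called difference between control lines, each as log2(CPM + 1) of its siCtl libraries minus the mean of the 3 lines, with 2 points per line. Ccnb2 at the top is lowest in PyMT-1099 LT, while Birc5 at the bottom is lowest in MT∆Ecad and Cdk1 and Cenpa are highest in Py2T LT.

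What the members share beyond their role was looked for in their promoters. RefSeq windows of 300 bases on GRCm38.p6, from 250 before to 50 after the gene start, were at hand for 36 of the 41 members, and those of Aurkb, Cdc25c, Kif20a, Spc24 and Tpx2 were not. The cell cycle homology region, written TTTGAA or TTCGAA and searched on both strands, was in 27 of 36 windows (75.0%), beside 13.6% of 9925 windows of tested genes. CCAAT, on both strands, was in 28 of 36 (77.8%), beside 39.4%, and 2 or more of them in 58.3%, beside 15.2%. Both elements together were in 66.7%, beside 5.82%. An E2F-type site (TTCCCGC or TTGGCGC) was in 11.1%, beside 12.6%, and the core of the antioxidant response element that Nrf2 binds (TGACNNNGC) in 19.4%, beside 14.8%. The gene start of the window lies well inside the annotated span of the gene for Aspm, Aurka, Kif2c and Pttg1, so that their windows may miss another start. No member was chosen by sequence, and a match is a description and not a bound site.

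**Figure D5:**
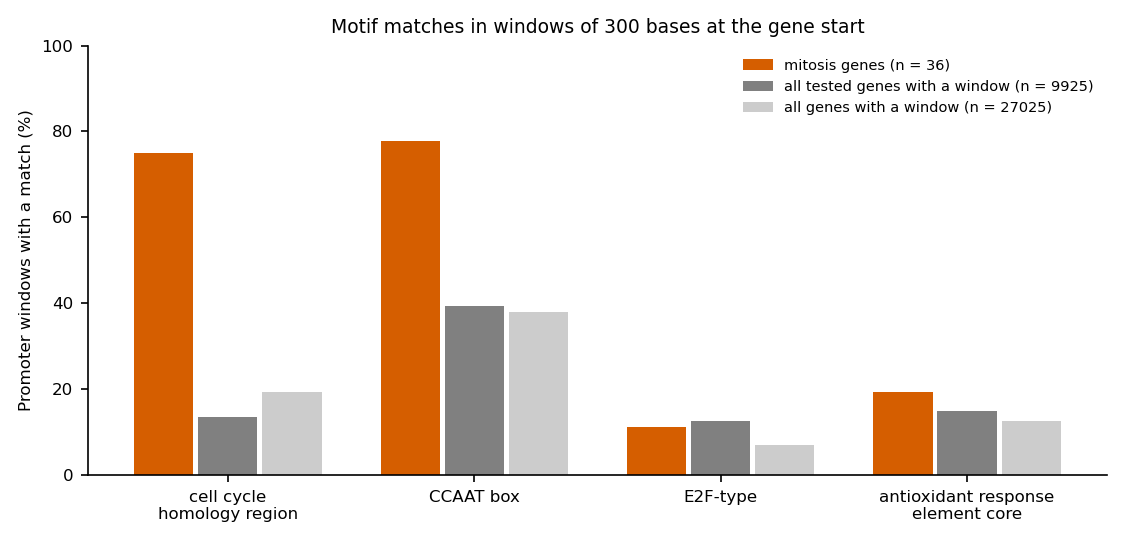
Share of promoter windows, in percent, with at least 1 match to each of 4 motifs on either strand, for the mitosis genes, all tested genes and all genes with a RefSeq window. The bars of the mitosis genes stand at 75.0% and 77.8% for the cell cycle homology region and the CCAAT box, and near those of the other genes for the E2F-type site and the antioxidant response element core.

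4 of these windows are shown, for members called lower in the mean of the lines: 3 with both elements, and Cks2 with CCAAT alone. They run 5′ to 3′ along the gene's own strand, and capitals mark TTTGAA or TTCGAA and CCAAT on either strand (a match on the other strand reads TTCAAA or TTCGAA, or ATTGG). The windows are chr3:89418242-89418541 (- strand) for Cks1b, chr9:70421505-70421804 (- strand) for Ccnb2, chr10:69352863-69353162 (- strand) for Cdk1 and chr13:51644982-51645281 (+ strand) for Cks2, on GRCm38.p6.
Cks1b: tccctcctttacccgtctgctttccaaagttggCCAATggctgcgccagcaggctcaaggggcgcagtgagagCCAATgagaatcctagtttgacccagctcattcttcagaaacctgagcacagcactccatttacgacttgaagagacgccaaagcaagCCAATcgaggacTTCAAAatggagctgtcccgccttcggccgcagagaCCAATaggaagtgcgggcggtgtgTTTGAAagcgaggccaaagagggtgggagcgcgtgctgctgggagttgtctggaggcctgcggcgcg
Ccnb2: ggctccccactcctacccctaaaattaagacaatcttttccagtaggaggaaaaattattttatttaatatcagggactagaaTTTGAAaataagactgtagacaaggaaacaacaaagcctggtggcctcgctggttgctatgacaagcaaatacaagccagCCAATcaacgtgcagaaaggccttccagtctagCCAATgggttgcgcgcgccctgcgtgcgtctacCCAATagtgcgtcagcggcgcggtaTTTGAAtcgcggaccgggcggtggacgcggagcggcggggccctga
Cdk1: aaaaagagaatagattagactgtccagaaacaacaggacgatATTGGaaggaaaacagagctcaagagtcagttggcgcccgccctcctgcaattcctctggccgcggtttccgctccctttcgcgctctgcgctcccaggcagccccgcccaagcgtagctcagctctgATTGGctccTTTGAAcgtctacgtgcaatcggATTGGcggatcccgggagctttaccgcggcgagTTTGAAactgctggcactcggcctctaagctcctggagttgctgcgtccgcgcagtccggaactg
Cks2: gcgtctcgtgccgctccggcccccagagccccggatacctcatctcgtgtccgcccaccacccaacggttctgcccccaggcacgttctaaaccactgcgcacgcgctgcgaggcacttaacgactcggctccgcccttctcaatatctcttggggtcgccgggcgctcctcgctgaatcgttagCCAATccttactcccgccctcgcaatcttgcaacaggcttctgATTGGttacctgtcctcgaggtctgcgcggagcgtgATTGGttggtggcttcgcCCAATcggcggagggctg

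In the Ccnb2 window the 3 CCAAT matches start at −87, −54 and −21 from the gene start, each 33 bases after the one before, and cell cycle homology matches start at −167 and 5. In the Cdk1 window matches to CCAAT at −80 and −48 lie 32 bases apart, with cell cycle homology matches at −71 and −15. The Cks1b window holds 4 CCAAT matches and cell cycle homology matches at −77 and −17. Of the 10 called members with a window 7 held both elements and 1 neither, and of the 26 not called 17 held both and 4 neither. The called member with neither was Pttg1. Cks2, with 4 CCAAT matches, and Nek2, both called, held no cell cycle homology letters.

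Other genes of the cell cycle were read from the same fits for the mean of the 3 lines, against the same background of 6.26% called lower and the blocked 21.0%. Of 23 genes that control transcription of mitosis genes 6 were called lower (14 blocked) and 0 higher, with a median of −0.19. Among them were Foxm1 at −0.26 and Mybl2 at −0.43, transcription factors of the G2 genes, Rbl1 at −0.43, the pocket protein p107, and Tfdp2 at −0.56, a partner of E2F. Of 36 other kinetochore and checkpoint genes 6 were called (21 blocked), median −0.19, with Mis18a at −0.32, which helps to load Cenpa, and Haspin, a kinase of histone H3, at −0.31. Condensin, cohesin and separase gave 4 of 18 (13 blocked), median −0.23, with Ncapd3 of condensin II at −0.31 and separase, Espl1, at −0.23. Other spindle and cytokinesis genes gave 2 of 23 (17 blocked), median −0.17, and G2 and mitotic entry regulators 3 of 11 (8 blocked), median −0.17, led by the kinases Pbk at −0.37 and Melk at −0.29.

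The subunits and regulators of the APC/C stood nearer to all genes: 1 of 17 was called lower, Anapc1 at −0.16, with a median of −0.060 (blocked 5 lower and 1 higher). G1 cyclins, their kinases and Cdk inhibitors had 3 of 15 lower (5 blocked), median −0.060, namely Cdk6 at −0.59, Ccnd1 at −0.40 and Cdk4 at −0.39. Of 40 replication genes, 28 were called lower (38 blocked), with a median of −0.33. In MT∆Ecad, where 8.42% of all tested genes were called lower, 31 of these 40 were, with a median of −0.57, beside 11 of 41 mitosis genes with a median of −0.27. With the block, where 21.2% of all tested genes were called lower in MT∆Ecad, these counts were 39 of 40 and 24 of 41. These counts and medians describe the lists, and no test compared one list with another.

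The 7-base runs ACCATTT and GAGAAGT were counted in 3′ UTRs, since earlier results of these data had drawn attention to them. Over 2897 tested genes with either run the median of the mean effect was −0.050, and over 9047 without it was 0.0055. As the choice of runs came from these same data, this difference is not independent of it. Of the mitosis genes only Spc24, Tpx2, Kif23 and Top2a hold either run, none of them among the 12 called. In the mean of the lines the 4 members with a run had a median of −0.24 and the 37 without one −0.21. All members of both sets lay below 0. The part of these runs in the result was not tested further.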

How the data were processed

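Total RNA depleted of ribosomal RNA was sequenced in 12 libraries, 2 for each of 6 groups, which are the 3 lines with siCtl or siNrf2. Values are CPM as deposited by the authors. The submitters' processing notes name STAR and the mouse build mm10, and the counter, annotation and strand setting are not given in the sources used here. CPM values were whole multiples of 1 read (100% whole within 0.01), which gave back counts of 27088970 to 37070635 reads per library. RefSeq symbols (GRCm38.p6) were matched to 24374 of 24454 Entrez IDs. RefSeq also gave the promoter windows, and GENCODE M21 gave transcript length and GC content. These are of the longest annotated transcript of each gene, protein-coding where the gene had such a transcript.

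The 12502 genes that reached 1 CPM in 2 or more libraries entered limma 3.58.1 in R 4.3.3 on log2(CPM + 1), with 6 group means, a variance trend and 6 residual degrees of freedom. Tests were two-sided with Benjamini-Hochberg adjustment over all tested genes, and a call is an adjusted p under 0.05. A fold change on this scale understates that of low genes. The mean of the 3 lines weights lines equally. The blocked fit adds 1 term per pair of same-numbered libraries of a line, and leaves 3 residual degrees of freedom. The pairing was taken from the data, since same-numbered libraries deviated together over all tested genes (r of 0.778, 0.846 and 0.625), and no label states it. Count tests on the recovered reads used edgeR 4.0.16 (quasi-likelihood) and DESeq2 1.42.0. The scripts were tested on simulated data. Where these held a length-dependent difference between replicates, recovery of known changes was not checked for limma without block or trend removal.

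Given in every library are the members called in the mean of the lines and the 2 largest changes of each role group, and per line the 5 largest. Of each other list at most the 4 called genes with the largest changes are named. The members and lists were chosen with earlier results of these data known.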

Additional observations from a re-analysis of the deposited data

Results flagged for a closer look

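In the blocked fit 4 of 41 mitosis genes passed limma's F test for a different response between the 3 lines, beside 19.0% of all tested genes. The adjusted p was 0.00607 for Cks1b, 0.0134 for Cdk1, 0.0256 for Aurka and 0.0475 for Nek2, with 3 residual degrees of freedom. Without the block none of them passed. Each had its lowest estimate in MT∆Ecad.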

How the results depend on the processing

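With the replicate block (same-numbered libraries of a line paired), 32 members were called lower in the mean of the lines (21.0% of all tested genes). In PyMT-1099 LT 7 were called lower (3.95%) and in MT∆Ecad 24 (21.2%). For MT∆Ecad against PyMT-1099 LT, against Py2T LT and by the F test, 3 (7.43%), 11 (9.49%) and 4 (19.0%) passed. The block changed no call in Py2T LT or between Py2T LT and PyMT-1099 LT. edgeR on recovered reads gave 6 and DESeq2 7 in the mean of the lines. edgeR with the block gave 33 (17.1% of all tested genes), 12 in PyMT-1099 LT (5.10%), 23 in MT∆Ecad (18.4%), and 1 (4.01%) and 7 (7.73%) for MT∆Ecad against the other lines in the above order. With the length and GC trend removed the counts were 19 (13.2% of all genes tested that way), 3 in PyMT-1099 LT (1.09%) and 20 in MT∆Ecad (16.5%), with 4 for MT∆Ecad against Py2T LT (5.49%) and 2 by the F test (6.33%). With the block as well they were 37 (27.2%), 30 (13.2%), 1 in Py2T LT (4.38%) and 34 (29.6%), and 10 (16.9%), 22 (22.5%) and 24 (39.2%) for the differences. In the control lines that correction without the block gave 11 lower (37.0%) and 12 higher (3624 of 12070 genes) in MT∆Ecad than in PyMT-1099 LT, 5 lower (33.9%) and 9 higher (30.1%) in MT∆Ecad than in Py2T LT, and 9 lower (33.7%) and 11 higher (32.2%) in Py2T LT than in PyMT-1099 LT. A block over all groups gave 7 higher in control MT∆Ecad than in control Py2T LT, and the share of all tested genes under this block is not given here. In MT∆Ecad its 4 libraries alone gave 6, and the members' median was −0.2425 with TMM factors, −0.2439 by edgeR, −0.2431 by edgeR with the block and −0.2517 by DESeq2. The cause was not tested. The edgeR fit with the block and the length and GC correction were chosen after seeing the data.

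Leaving out 1 library, with the lone library of its group assumed to vary like the others, gave 5 to 14 members in the mean of the lines (median −0.264 to −0.160), 3 to 14 in MT∆Ecad (−0.298 to −0.264), and 0 in PyMT-1099 LT (−0.250 to −0.0782), in Py2T LT (−0.204 to −0.0034) and for each difference between lines. For control lines it gave 5 lower and 5 to 9 higher (MT∆Ecad against PyMT-1099 LT), 4 to 5 and 3 to 6 (MT∆Ecad against Py2T LT), and 4 to 10 and 6 to 8 (Py2T LT against PyMT-1099 LT). For these fits the share of all tested genes called is not given here. The mean turned above 0 for 4 members that were not called. Without siNrf2 replicate 1 of PyMT-1099 LT it was 0.0039 for Cenpf (range over the left-out libraries −0.4766 to 0.0039), 0.0600 for Nusap1, 0.0704 for Cenpe (−0.4218 to 0.0704) and 0.010 for Ndc80 (−0.2745 to 0.010). Without siNrf2 replicate 1 of Py2T LT it was 0.0880 for Nusap1 (−0.2669 to 0.0880) and 0.0269 for Cenpe. The stricter filter of 5 CPM dropped Cks2. Pseudocounts of 0.25 and 4 left the counts of called members in the mean and in each line within 1.5 times.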
